A study of Sus scrofa with 8 samples.

Results

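The mitochondrial genome of the pig heart is described through its 37 genes, out of 30550 genes in the deposited expression table. They were taken by position, as every gene that the table places on the same sequence as COX1. The set comprises 13 protein genes, 2 ribosomal RNA (rRNA) genes and 22 transfer RNA (tRNA) genes. RNA was sequenced from the right ventricle of pigs (Sus scrofa) in which 1 copy of PKP2 was knocked out, here PKP2_het, and of wild-type pigs, here WT, in 4 libraries per group. The PKP2 product, plakophilin 2, belongs to the desmosomes that hold the muscle cells of the heart together. The knockout pigs are presented as a model of arrhythmogenic cardiomyopathy. The labels used here carry no age, sex, breed or founder animal. They do not tie libraries to individual animals, and p-values therefore reflect variation among libraries, which may be technical. Levels are FPKM, the number of sequenced fragments scaled by gene length and library, as deposited.

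Animal mitochondria keep a small circular genome of their own. It is copied into long RNAs that run through many genes on either strand, and these RNAs are then cut at the tRNAs that punctuate them, which releases the messenger and ribosomal RNAs. The 13 proteins are core subunits of respiratory complexes I, III, IV and V, whose remaining subunits come from the nucleus. Heart muscle is rich in mitochondria and carries much of this RNA.

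The libraries held between 23637697 and 31313628 fragments assigned to genes. PKP2 itself had 45.4, 40.7, 24.6 and 45.9 FPKM in PKP2_het replicates 1 to 4, against 52.9, 62.2, 61.1 and 72.8 FPKM in WT replicates 1 to 4. The groups did not overlap (exact permutation test, two-sided, p = 0.0286, the lowest that 70 relabellings allow), while limma across all genes gave a log2 fold change of -0.69 ± 0.20 (SE) and did not call PKP2 (adjusted p = 0.164). PKP2_het replicate 3 stood apart from its group across nuclear genes, with a mean correlation of 0.949 with the other PKP2_het libraries, against at least 0.971 for every other library with its own group. The ventricular light chain gene MYL3 had 6278 to 9879 FPKM in PKP2_het and 6438 to 8481 FPKM in WT. The cell type label names cardiomyocytes, yet genes of other cells were present, such as the endothelial PECAM1 with 55.4 to 116 FPKM in PKP2_het and 65.5 to 141 FPKM in WT. The 4 atrial muscle markers summed to 652, 115, 31.1 and 8.93 FPKM in PKP2_het and 9.78, 29.2, 1165 and 6.42 FPKM in WT. The most abundant marker of each of the 10 cell types listed, MYL3, MYL7, TNNI2, PECAM1, DCN, RGS5, C1QA, NKG7, FABP4 and HBB, overlapped between the groups. The part of these cells in the results was not tested.

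In order of start, the 37 genes lie with at most 32 bases between one and the next. Their starts and ends are the same in the RefSeq annotation of Sscrofa11.1. They run from tRNA-Phe at bases 1176 to 1245 to tRNA-Pro at bases 16550 to 16613. The table places 28 on the plus strand and 9 on the minus strand, where ND6 and the tRNAs for Gln, Ala, Asn, Cys and Tyr lie. ATP8 and ATP6 overlap by 43 bases, ND5 and ND6 by 17 and ND4L and ND4 by 7. The tRNA genes are 59 to 75 bases long, shorter than the 150-base reads. The rule by which the authors assigned a fragment that touches several genes, and whether strand was used, are not given in any source used here. Values of tRNA genes, overlapping genes and genes opposite each other are therefore uncertain in that respect, and the same holds for reads shared with copies of mitochondrial sequence in the nuclear genome.

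Mitochondrial RNA was a large part of every library. The 37 genes took 25.7, 21.1, 52.1 and 33.4% of assigned fragments in PKP2_het replicates 1 to 4, against 37.6, 24.4, 22.03 and 23.8% in WT replicates 1 to 4. The mean was 33.1 ± 13.7% in PKP2_het and 27.0 ± 7.18% in WT (SD, n = 4 each), a difference of 6.12 percentage points, smaller than the SD within either group. The difference was -0.23 points without PKP2_het replicate 3 and -3.55 points without replicates 3 and 4. The groups overlapped, with the highest library of each far above the rest of its group. In whole tissue, a different number of muscle cells and a different amount of mitochondrial RNA per cell cannot be told apart.

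**Figure D1:**
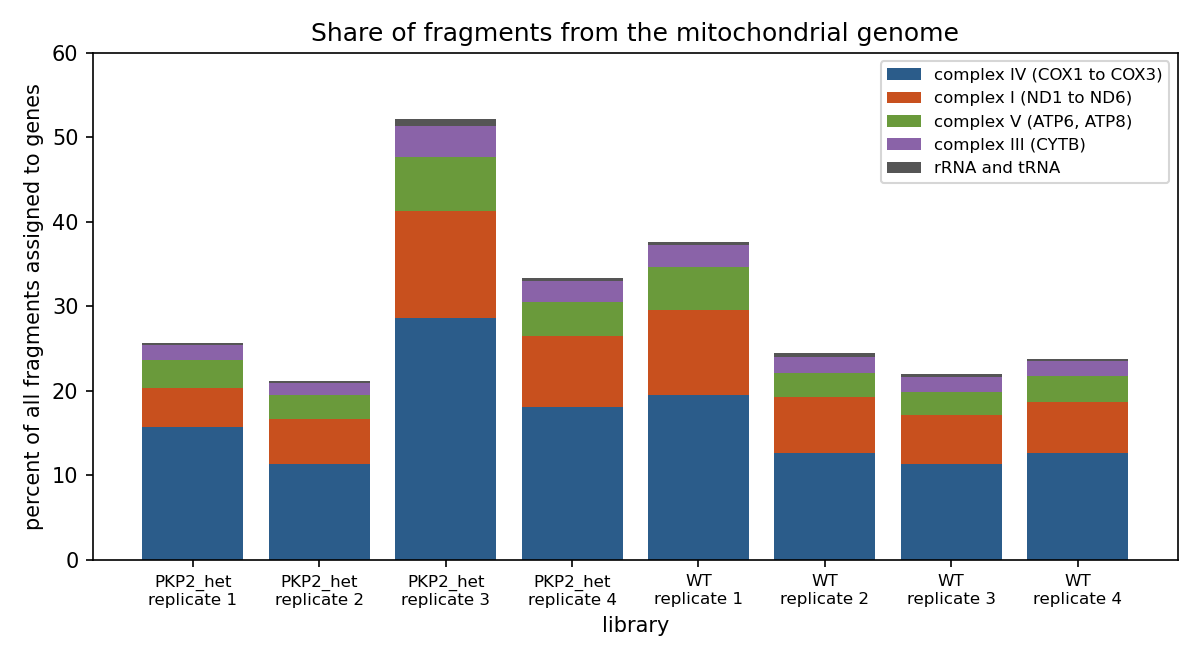
Share of all fragments assigned to genes (percent, y axis) that came from mitochondrial genes in each library (x axis), stacked by respiratory complex and RNA class. PKP2_het replicate 3 reached 52.1% and WT replicate 1 37.6%, and complex IV was the largest layer in each bar.

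Within the mitochondrial fragments, complex IV took more and complex I less in PKP2_het. The complex IV genes COX1, COX2 and COX3, which encode the core of cytochrome c oxidase, held 61.1, 53.8, 54.9 and 54.2% of mitochondrial fragments in PKP2_het, against 51.7, 51.6, 51.7 and 52.9% in WT. The 7 complex I genes, which encode the membrane arm of NADH dehydrogenase, held 17.96, 25.3, 24.2 and 25.3% in PKP2_het, against 26.8, 27.3, 26.3 and 25.7% in WT. Neither share overlapped between the groups, PKP2_het replicate 1 being the farthest out for both. The closest libraries between groups held 53.8 and 52.9% for complex IV and 25.3 and 25.7% for complex I. Single genes did not all follow: COX3 had a mean of 13.6% in PKP2_het and 14.1% in WT. ND1, ND2 and ND3 had means of 3.04, 3.10 and 0.835% in PKP2_het, against 1.64, 2.48 and 0.584% in WT. In PKP2_het the means of COX1 and COX2 were higher, and those of ND4L, ND4, ND5 and ND6 lower. Shares of a whole are tied to each other, and no test was made on them. CYTB, the only mitochondrial gene of complex III, held 6.47 to 7.14% in PKP2_het and 7.03 to 8.41% in WT, and these ranges overlapped. The 2 rRNA genes together held 1.05 to 1.28% in PKP2_het and 0.966 to 1.5024% in WT. The 22 tRNA genes together held 0.0308, 0.0378, 0.113 and 0.115% in PKP2_het replicates 1 to 4 and 0.0346 to 0.0460% in WT, so replicates 3 and 4 alone lay above WT.

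Of the 37 genes, 29 reached 1 FPKM in 4 or more libraries and were tested with all other genes: the 13 protein genes, both rRNA genes and 14 tRNA genes. The remaining 8 were tRNA genes. One of the 14, tRNA-Tyr, reached 1 FPKM in all 4 PKP2_het libraries but in 2 WT libraries, so it passed through the group where it was high, and nothing is read from its place in the counts. On the deposited levels, limma called 0 of these 29 at a Benjamini-Hochberg adjusted p of 0.05, where 1.86% of the 10757 genes tested were called. At an unadjusted p of 0.05, 5 of 29 passed, all of them tRNA genes and 4 without tRNA-Tyr, against 12.8% of all genes tested. By voom on recovered fragments 0 of 29 were called as well, whereas rescaling to equal FPKM sums called 2 and leaving out PKP2_het replicate 2 called 1. The log2 fold change of PKP2_het over WT was positive for 21 and negative for 8. Their median was 0.51, against -0.02 over all genes. Without PKP2_het replicates 3 and 4 every one of the 10 positive protein genes turned negative.

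**Figure D2:**
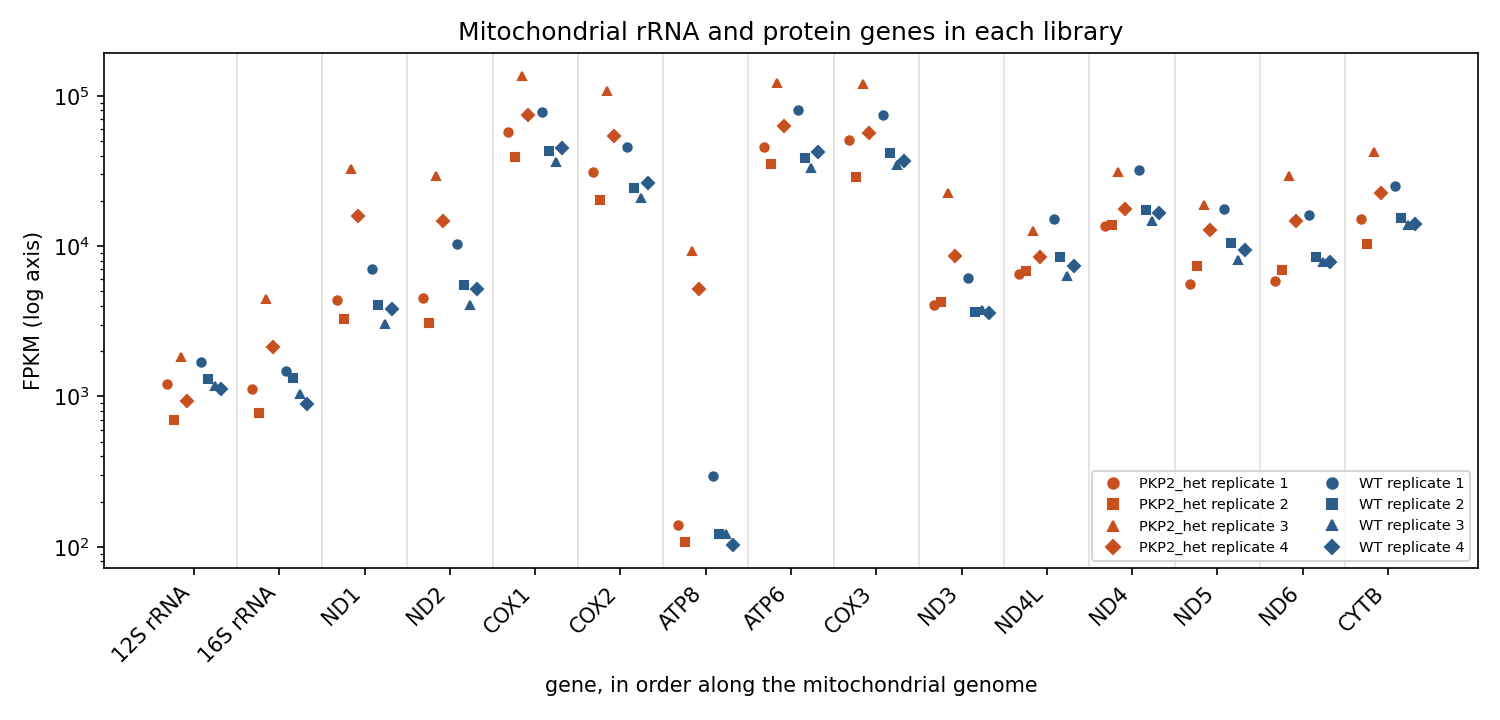
Level of the 13 protein genes and 2 rRNA genes (FPKM, log y axis) in each library, in genome order along the x axis, with PKP2_het symbols left of WT symbols. PKP2_het replicate 3 was the highest library for 13 of these 15 genes, and ATP8 lay between 103 and 296 FPKM except in PKP2_het replicates 3 and 4.

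Among the mitochondrial genes, COX1 of complex IV had the highest mean level in each group, followed by ATP6 of complex V. COX1, the catalytic subunit, had 57571, 39384, 134376 and 74083 FPKM in PKP2_het replicates 1 to 4, against 78442, 42759, 36070 and 45088 FPKM in WT replicates 1 to 4. Each group held high and low libraries, and the groups overlapped widely. The log2 fold change was 0.51 ± 0.39 (SE; limma adjusted p = 0.635), and 0.19 without PKP2_het replicate 3. COX2, which accepts electrons from cytochrome c, had 31228, 20242, 107738 and 54007 FPKM in PKP2_het and 45402, 24166, 20826 and 26416 FPKM in WT. COX3, the third core subunit, had 50905, 28666, 119621 and 56271 FPKM in PKP2_het and 74447, 41354, 34806 and 36915 FPKM in WT. Limma called neither gene. The log2 fold change was 0.65 ± 0.49 (SE; limma adjusted p = 0.623) for COX2 and 0.33 ± 0.43 (SE; limma adjusted p = 0.768) for COX3.

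The complex I genes did not move as a block. ND1 had 4359, 3267, 32698 and 15804 FPKM in PKP2_het replicates 1 to 4, against 6995, 4028, 3046 and 3797 FPKM in WT. ND2 had 4525, 3062, 29100 and 14796 FPKM in PKP2_het, against 10362, 5511, 4053 and 5154 FPKM in WT. For both genes PKP2_het replicates 3 and 4 lay above every WT library and replicates 1 and 2 lay within or below the WT range. ND4, by contrast, had 13536, 13758, 31071 and 17679 FPKM in PKP2_het, against 32273, 17377, 14725 and 16636 FPKM in WT, and ND5 had 5620, 7326, 18680 and 12722 FPKM in PKP2_het, against 17714, 10458, 8123 and 9461 FPKM in WT. The log2 fold change was 1.12 ± 0.67 (SE) for ND1, 0.58 ± 0.65 for ND2, 0.87 ± 0.50 for ND3, -0.09 ± 0.31 for ND4L, -0.11 ± 0.34 for ND4, -0.14 ± 0.39 for ND5 and 0.26 ± 0.49 for ND6. The lowest limma adjusted p among these 7 was 0.522.

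The smaller complex I genes differed among themselves. ND3 had 4079, 4222, 22459 and 8587 FPKM in PKP2_het replicates 1 to 4, against 6134, 3620, 3771 and 3571 FPKM in WT. ND4L, which shares its end with the start of ND4, had 6506, 6803, 12544 and 8472 FPKM in PKP2_het and 15142, 8434, 6341 and 7378 FPKM in WT. In WT the highest library of both genes was replicate 1. ND6, the only protein gene on the minus strand, had 5851, 6903, 29098 and 14715 FPKM in PKP2_het and 16191, 8513, 7848 and 7875 FPKM in WT. The level of ND6 over that of ND5, which it overlaps on the opposite strand, was 1.04, 0.942, 1.56 and 1.16 in PKP2_het and 0.914, 0.814, 0.966 and 0.832 in WT, with PKP2_het replicate 2 inside the WT range and the other 3 PKP2_het libraries above it. This ratio is among those picked after the values were seen and has no test.

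In complex V, the ATP synthase, the neighbouring genes ATP8 and ATP6 parted. ATP6, the proton channel subunit, had 45881, 35269, 122343 and 62808 FPKM in PKP2_het, against 80496, 38570, 33210 and 41930 FPKM in WT (log2 fold change 0.38 ± 0.42). ATP8, a small membrane subunit, had 140, 108, 9250 and 5168 FPKM in PKP2_het, against 296, 122, 121 and 103 FPKM in WT. PKP2_het replicates 3 and 4 stood far above the other 6 libraries, which ranged between 103 and 296 FPKM. The ATP8 log2 fold change was 2.66 ± 1.36 (limma adjusted p = 0.463), 1.55 without PKP2_het replicate 3 and -0.24 without both replicates 3 and 4. CYTB of complex III had 15111, 10251, 42253 and 22640 FPKM in PKP2_het and 25148, 15278, 13887 and 14007 FPKM in WT (log2 fold change 0.25 ± 0.41).

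The rRNAs form the mitochondrial ribosome and stood below most messenger RNAs here. The 12S rRNA had 1209, 699, 1821 and 929 FPKM in PKP2_het, against 1698, 1312, 1177 and 1112 FPKM in WT. The 16S rRNA had 1116, 777, 4465 and 2122 FPKM in PKP2_het, against 1470, 1332, 1046 and 895 FPKM in WT. The 16S level over the 12S level was 0.923, 1.11, 2.45 and 2.28 in PKP2_het and 0.866, 1.01, 0.888 and 0.805 in WT, so the ratio was higher in PKP2_het replicates 3 and 4 than in the other 6 libraries. Whether the libraries were depleted of rRNA or selected for poly(A) is not given in any source used here.

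Setting each gene against COX1 in the same library brought the median log2 fold change of the 28 other genes tested to 0.03. A median near 0 follows from the division, since the median before it, 0.51, was the value of COX1 itself. The ratio varied least in WT for COX2 and ND4, with coefficients of variation of 1.49 and 5.01%, and more for other genes, as for 16S rRNA at 25.5% and tRNA-Cys at 68.6%. In WT COX2 stood at 57.9, 56.5, 57.7 and 58.6% of COX1 and ND4 at 41.1, 40.6, 40.8 and 36.9%. In PKP2_het COX2 stood at 54.2, 51.4, 80.2 and 72.9% of COX1 and ND4 at 23.5, 34.9, 23.1 and 23.9%. The coefficient of variation of the ratio between libraries was higher in PKP2_het than in WT for 13 of the 14 protein and rRNA genes other than COX1, with a median of 26.7% in PKP2_het and 8.38% in WT. Over all 26 genes above 0 in every library it was higher in PKP2_het for 21, with a median of 28.0% in PKP2_het and 17.0% in WT, and tRNA-Met, tRNA-His and both tRNA-Ser genes varied more in WT. ATP6 was the steadiest of these genes in PKP2_het, at 79.7, 89.6, 91.0 and 84.8% of COX1, against 103, 90.2, 92.1 and 93.0% in WT. All these ratios share COX1 as denominator, and their spread was not set against that of all genes. Across nuclear genes, the mean correlation of a library with its own group was 0.949 for PKP2_het replicate 3. It was 0.971 to 0.974 for the other PKP2_het libraries and 0.979 to 0.985 in WT. Each PKP2_het mean includes the correlation with replicate 3, so these means do not show a wider spread among the other PKP2_het libraries.

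**Figure D3:**
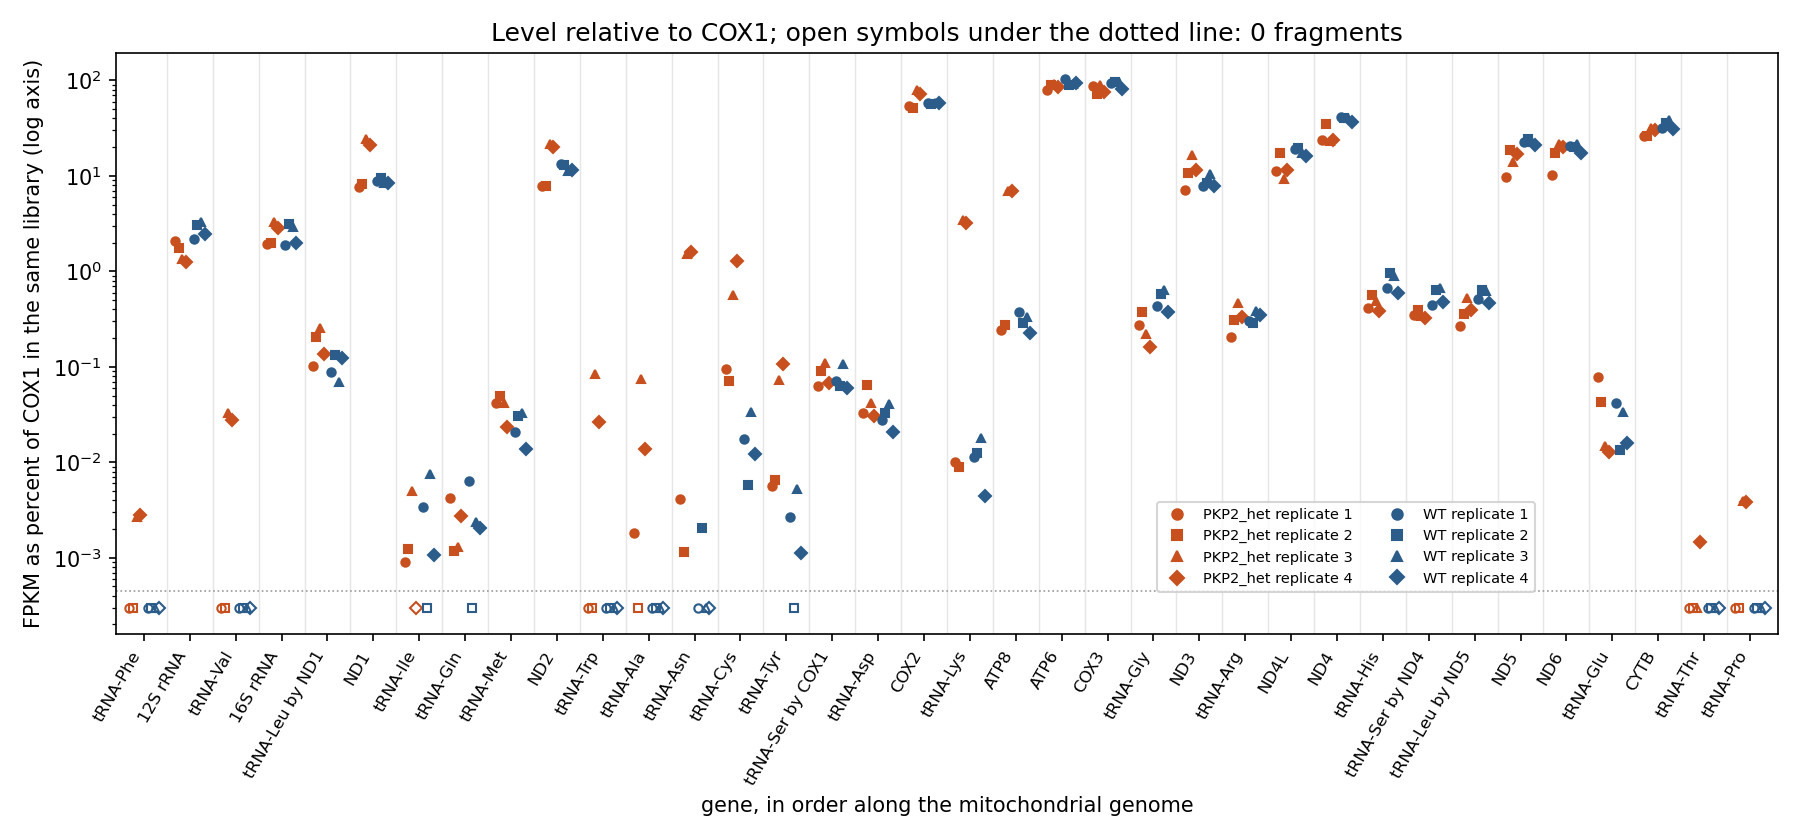
Level of each gene as a percentage of COX1 in the same library (log y axis) for the 36 genes other than COX1, in genome order, with PKP2_het left of WT and open symbols for genes with 0 fragments. PKP2_het replicates 3 and 4 lay above every WT library at ND1, ND2, COX2, tRNA-Lys and ATP8, and the PKP2_het libraries lay below every WT library at ND4 and ND5.

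The ratios to COX1 parted along the genome. Several from ND4 to ND5 were lower in PKP2_het: ND4, at 23.1 to 34.9% of COX1 in PKP2_het and 36.9 to 41.1% in WT, did not overlap between the groups. ND5, at 9.76 to 18.6% in PKP2_het and 20.98 to 24.5% in WT, did not overlap either. Between them, tRNA-His had 0.383 to 0.562% in PKP2_het and 0.5998 to 0.957% in WT, and the tRNA-Ser near ND4 had 0.325 to 0.397% in PKP2_het and 0.445 to 0.664% in WT. The third tRNA gene there, the tRNA-Leu near ND5, overlapped, with 0.267 to 0.525% in PKP2_het and 0.462 to 0.640% in WT. At the other end, 12S rRNA had 1.25 to 2.10% in PKP2_het and 2.16 to 3.26% in WT. In all, 5 of the 28 genes tested were lower without overlap, against 1.65% of all genes tested. All 5 share the division by COX1, so they are not independent of each other. The division also carries the spread of COX1 between libraries into the nuclear genes. For genes higher without overlap, the share of all genes was 4.86% on deposited levels and 0.372% on the COX1 scale. Shares of all genes on the COX1 scale are thus not a like-for-like background, and nothing is read from the counts beside them. As a percentage of the 13 protein genes' summed FPKM, or of mitochondrial fragments, 2 stayed apart, ND5 and tRNA-His, while ND4, 12S rRNA and the tRNA-Ser near ND4 overlapped. The share of all genes without overlap was not computed on these other scales, so the counts on them have no background. With tRNA-Tyr left aside, 1 of 27 was higher without overlap on each of the 3 scales, tRNA-Cys, against 0.372% of all genes tested on the COX1 scale.

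The limma fit on libraries scaled to COX1 did not call these lower genes. The log2 fold change was -0.62 ± 0.21 (SE) for ND4 (adjusted p = 0.268), -0.65 ± 0.24 for ND5 (adjusted p = 0.429) and -0.77 ± 0.38 for 12S rRNA (adjusted p = 0.588). ND4 passed in 1 of 19 alternative settings, and ND4, ND5, ND4L and 12S rRNA kept a negative value in all of them. This scaling moved the median of all genes to -0.42, and the negative values stand against that median.

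The same fit called 4 of 28 genes higher, ATP8, tRNA-Lys, tRNA-Cys and tRNA-Tyr, against 0.316% of all genes tested that were called higher; without tRNA-Tyr, which had 8 WT fragments in all, it was 3 of 27. That share is not a like-for-like background, since the scaling moved the median of all genes to -0.42 and carried the spread of COX1 into nuclear genes. The 4 calls also rest on a spread that the fit drew from other genes. With each gene's own variance 0 of the 28 were called, and with robust variances 1 was, tRNA-Cys. The ATP8 log2 fold change was 2.15, with an adjusted p of 0.000396 by limma as fitted and of 0.588 with its own variance, where the SE was 1.38. Without PKP2_het replicates 3 and 4 it was -0.22 for ATP8 and -0.12 for tRNA-Lys.

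**Figure D4:**
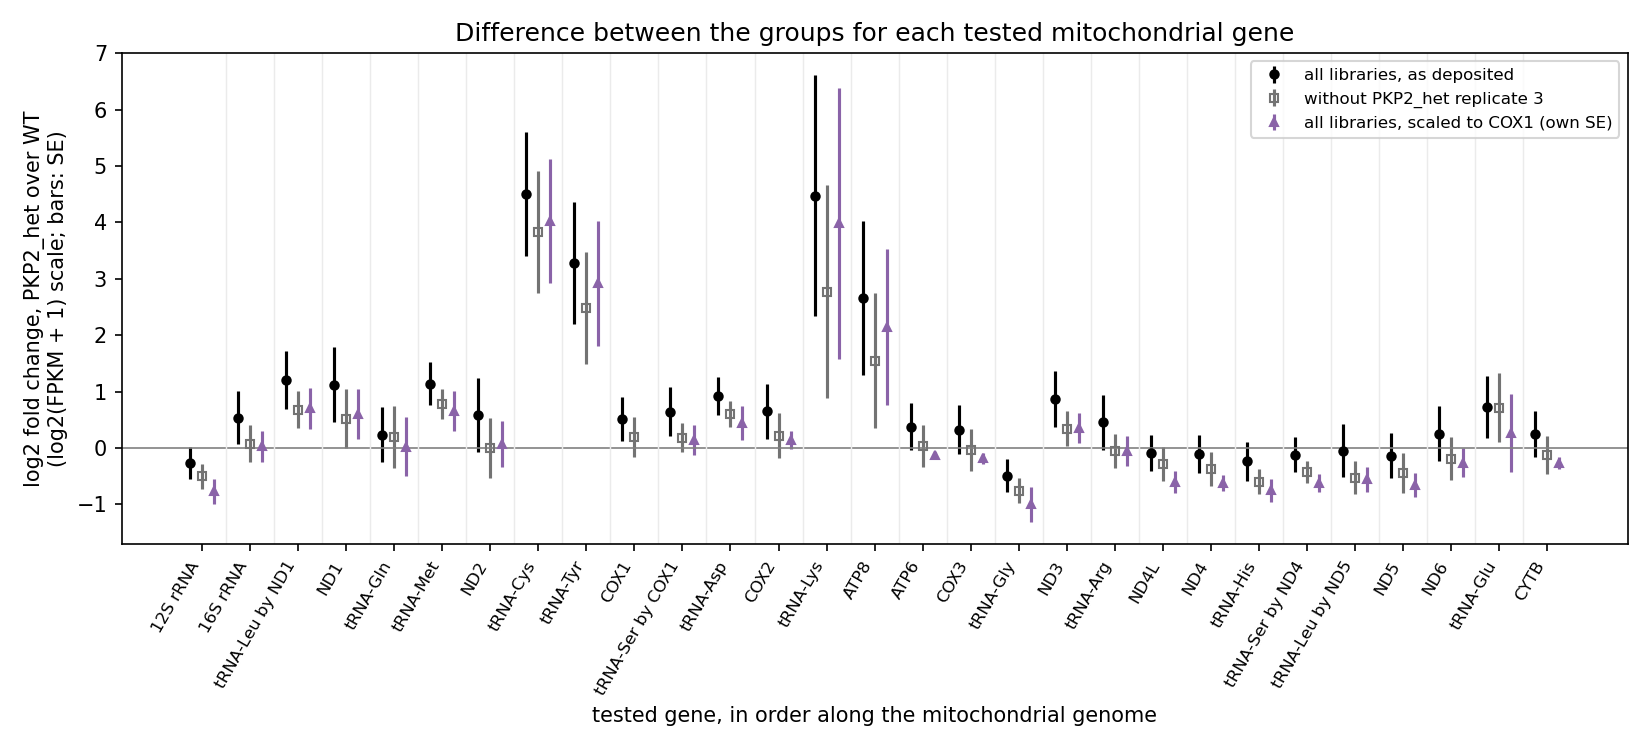
Log2 fold change of PKP2_het over WT on the log2(FPKM + 1) scale (y axis, bars are SE) for the 29 tested mitochondrial genes in genome order, on deposited levels with all libraries, without PKP2_het replicate 3, and scaled to COX1 with each gene's own SE. The genes from ND4L to ND5 lay below 0 in each version, and tRNA-Cys, tRNA-Tyr, tRNA-Lys and ATP8 had the highest values and the widest bars.

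PKP2_het replicates 3 and 4 shared a pattern of high stretches. ND1 stood at 24.3 and 21.3% of COX1 in these libraries, against 7.57 and 8.30% in PKP2_het replicates 1 and 2 and 8.42 to 9.42% in WT. ND2 stood at 21.7 and 19.97% in them, against 7.86 and 7.78% in PKP2_het replicates 1 and 2 and 11.2 to 13.2% in WT, so that for ND2 the PKP2_het libraries lay on either side of the WT range. ATP8 stood at 0.243 and 0.274% of COX1 in PKP2_het replicates 1 and 2, inside the WT range of 0.228 to 0.377%. ND3, on the far side of COX3, stood at 7.09, 10.7, 16.7 and 11.6% in PKP2_het and 7.82 to 10.5% in WT.

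The ratio of the neighbours ND1 and ND2 separated the groups in all 8 libraries. ND1 over ND2 was 0.963, 1.07, 1.12 and 1.07 in PKP2_het replicates 1 to 4, against 0.675, 0.731, 0.751 and 0.737 in WT. PKP2_het replicates 1 and 2, whose levels of either gene lay within or below the WT range, shared this ratio with replicates 3 and 4. ND3 over ND4 was 0.301, 0.307, 0.723 and 0.486 in PKP2_het, against 0.190, 0.208, 0.256 and 0.215 in WT, again without overlap. These pairs were picked after the values were seen, among 9 ratios computed, and carry no test.

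The tRNA genes held the widest differences. tRNA-Cys, which carries cysteine to the mitochondrial ribosome, had 55.3, 27.8, 755 and 961 FPKM in PKP2_het, against 13.9, 2.48, 12.2 and 5.56 FPKM in WT. Every PKP2_het library lay above every WT library, and replicates 3 and 4 were far above replicates 1 and 2. Its log2 fold change was 4.50 ± 1.09 (SE; limma adjusted p = 0.0871), and over 20 alternative settings the adjusted p ranged between 0.00323 and 0.433.

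Its neighbour tRNA-Tyr, which overlaps it by 1 base, had 3.22, 2.57, 97.7 and 79.7 FPKM in PKP2_het, against 2.08, 0, 1.87 and 0.506 FPKM in WT (log2 fold change 3.28 ± 1.08, limma adjusted p = 0.216). tRNA-Met, which lies between tRNA-Gln and ND2, had 24.3, 19.4, 56.2 and 17.3 FPKM in PKP2_het, against 16.4, 13.1, 11.9 and 6.20 FPKM in WT (log2 fold change 1.14 ± 0.37, limma adjusted p = 0.213). With tRNA-Cys these were the 3 of 29 genes whose deposited levels did not overlap, all higher in PKP2_het, against 4.86% of all genes tested that were higher without overlap, tRNA-Tyr having passed the filter through PKP2_het. For tRNA-Met the groups overlapped once divided by COX1.

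tRNA-Lys, between COX2 and ATP8, had 5.82, 3.55, 4654 and 2372 FPKM in PKP2_het, against 8.89, 5.38, 6.46 and 1.99 FPKM in WT. As for ATP8, replicates 1 and 2 lay within the WT range. tRNA-Asn, next to tRNA-Cys, had 2.36, 0.452, 2048 and 1175 FPKM in PKP2_het, or 6070 fragments in all, against 0, 0.874, 0 and 0 FPKM in WT, or 2 fragments in all. It did not pass the filter, since only 3 libraries reached 1 FPKM.

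tRNA-Trp and tRNA-Ala, which precede tRNA-Asn, had 0 fragments in all 4 WT libraries. tRNA-Trp had 0, 0, 114 and 19.5 FPKM in PKP2_het, and tRNA-Ala had 1.04, 0, 99.2 and 10.3 FPKM. Against a floor of 3 fragments over the WT group, the PKP2_het mean was at least 86.7-fold higher for tRNA-Trp and at least 71.8-fold higher for tRNA-Ala. tRNA-Val, between the rRNAs, had 0, 0, 44.3 and 20.6 FPKM in PKP2_het and 0 in WT, at least 42.2-fold higher. tRNA-Phe and tRNA-Pro, the outermost genes, had at most 3.59 and 5.24 FPKM in PKP2_het and 0 in WT, and tRNA-Thr had 2 fragments in PKP2_het replicate 4 and 0 elsewhere. Such floors cover counting error only, since fragments without molecular identifiers are not independent molecules. For all of tRNA-Phe, tRNA-Val, tRNA-Trp and tRNA-Pro, PKP2_het replicates 1 and 2 were also at 0.

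The other tRNAs were spread more evenly. tRNA-His, with 235, 221, 660 and 284 FPKM in PKP2_het and 523, 409, 326 and 270 FPKM in WT, and tRNA-Gly, with 157, 150, 296 and 121 FPKM in PKP2_het and 342, 245, 229 and 170 FPKM in WT, were among the most abundant in WT. The tRNA-Leu near ND1 had a log2 fold change of 1.21 ± 0.51 (limma adjusted p = 0.360) and tRNA-Asp of 0.93 ± 0.33 (limma adjusted p = 0.263). tRNA-Glu, on the minus strand between ND6 and CYTB, had 45.2, 16.7, 20.03 and 9.59 FPKM in PKP2_het and 32.5, 5.70, 12.1 and 7.26 FPKM in WT, with its highest library in neither of the PKP2_het libraries that led elsewhere. The tRNA-Ser near COX1 had 35.4 to 147 FPKM in PKP2_het and 26.8 to 55.5 FPKM in WT, and tRNA-Arg 119 to 631 FPKM in PKP2_het and 122 to 236 FPKM in WT. The tRNA-Leu near ND5 had 142 to 705 FPKM in PKP2_het and 208 to 402 FPKM in WT, and these 3 overlapped between the groups. tRNA-Ile and tRNA-Gln stayed below 7 FPKM in every library of both groups.

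Proteins that make and cut mitochondrial RNA are encoded in the nucleus. Of 58 such genes 57 were tested, 2 were called higher and 1 lower by limma, against 1.86% of all genes tested. One of the 2, MRM1, reached 1 FPKM in no WT library and passed the filter through PKP2_het alone, which leaves 1 higher and 1 lower of 56. The median log2 fold change of these 56 was -0.07, against -0.02 over all genes. The calls left, like MRM1, were among the 21 genes that cut the RNA and mature the tRNAs, and nothing is read from this. The 17 transcription genes tested and the 19 stability and decay genes had 0 calls. Of these, 1 and 4 members had an unadjusted limma p under 0.05, against 12.8% of all genes tested. By voom on recovered fragments 3 of the 57, MRM1 included, were called, against 122 higher and 70 lower of all 10757 genes.

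HSD17B10, which in humans is a subunit of the mitochondrial RNase P that cuts the 5′ end of tRNAs, had 148, 115, 148 and 132 FPKM in PKP2_het, against 67.8, 76.7, 68.3 and 85.9 FPKM in WT. It rose by 0.85 ± 0.14 on the log2 scale (SE; limma adjusted p = 0.0118), without overlap and without a PKP2_het library apart from the rest. Its human partners in that enzyme, TRMT10C, with 1.02 ± 0.111 FPKM in PKP2_het and 1.12 ± 0.0636 FPKM in WT, and PRORP, with 1.19 ± 0.222 FPKM in PKP2_het, against 1.34 ± 0.130 FPKM in WT (SD, n = 4 each), overlapped between the groups. HSD17B10 also encodes a dehydrogenase of isoleucine breakdown.

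ELAC2, in humans the enzyme that cuts the 3′ end of tRNAs, had 6.004, 6.91, 6.23 and 7.48 FPKM in PKP2_het, against 10.2, 10.1, 10.2 and 12.2 FPKM in WT. It fell by 0.60 on the log2 scale, with an SE of 0.11 and a limma adjusted p of 0.0217. MRM1, in humans a methyltransferase of the 16S rRNA, had 1.58, 1.46, 2.16 and 1.69 FPKM in PKP2_het, against 0.707, 0.716, 0.949 and 0.892 FPKM in WT. Its log2 fold change was 0.58 ± 0.10 (limma adjusted p = 0.0208), but it entered the fit through its PKP2_het values, and with no filter on low values the adjusted p was 0.0492. The 3 genes kept their direction in all alternative settings, but lost the call in 4 of 20 for HSD17B10, 9 of 20 for ELAC2 and 8 of 19 for MRM1, among them each gene's own variance, where the adjusted p was 0.0525, 0.0570 and 0.0696, and equal FPKM sums, where it was 0.732, 0.408 and 0.609.

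**Figure D5:**
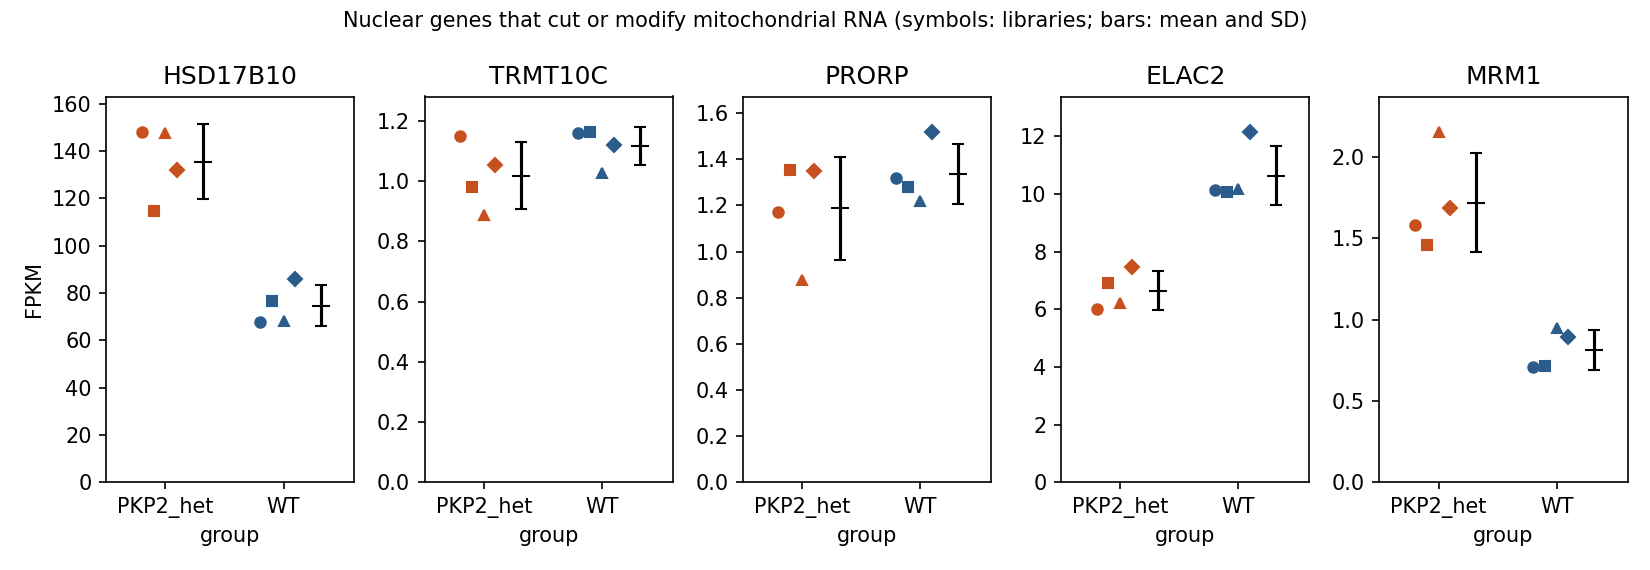
Level (FPKM, y axis from 0) of 5 nuclear genes that cut or modify mitochondrial RNA in PKP2_het, on the left, and WT, on the right of each panel, with a symbol per library and bars for mean and SD (n = 4 each). HSD17B10 and MRM1 were higher and ELAC2 lower in PKP2_het without overlap, whereas TRMT10C and PRORP overlapped.

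The general factors of mitochondrial transcription and RNA stability did not pass the test. POLRMT, the mitochondrial RNA polymerase, had a mean of 7.23 FPKM in PKP2_het, with an SD of 0.223, and of 7.26 FPKM in WT, with an SD of 0.364 (log2 fold change -0.0039 ± 0.087). TFAM, which packages mitochondrial DNA and starts transcription, had 14.2, 15.6, 3.42 and 14.3 FPKM in PKP2_het and 12.3, 13.2, 14.3 and 14.8 FPKM in WT, its lowest value being in the library with the most mitochondrial RNA. LRPPRC, which with SLIRP keeps messenger RNAs stable, was also lowest in that library, with 22.9, 22.5, 9.52 and 23.5 FPKM in PKP2_het and 19.6, 22.1, 22.5 and 25.8 FPKM in WT. SLIRP had 121, 92.7, 149.9 and 99.4 FPKM in PKP2_het and 109, 90.8, 87.3 and 78.9 FPKM in WT (log2 fold change 0.32 ± 0.17, limma adjusted p = 0.497). Nuclear genes tested were set against their average over libraries. The shortest 25% lay above the longest 25% by 0.31 on the log2 scale in PKP2_het replicate 3 and by 0.20 in replicate 1. The difference was -0.11 in PKP2_het replicate 2 and -0.10 in PKP2_het replicate 4, inside the WT range of -0.13 to 0.01. HSD17B10, TFAM and SLIRP belong to the shortest genes, LRPPRC, TRMT10C and MRM1 to the longest. The part of gene length in these values was not tested.

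Of 75 nuclear genes for subunits of complexes I, III, IV and V that were tested, 55 had a positive log2 fold change and 20 a negative one. That split has no background, since the share of all genes with a positive value was not computed. The median was 0.15, against -0.02 over all genes. Limma called 1 of the 75, against 1.86% of all genes tested. That gene was ATP5J, coupling factor 6 of the ATP synthase, with 312, 231, 332 and 268 FPKM in PKP2_het, against 166, 175, 162 and 174 FPKM in WT. It rose by 0.74 ± 0.14 on the log2 scale (limma adjusted p = 0.0305), and lost the call in 10 of 20 alternative settings. Every PKP2_het value of ATP5J exceeded every WT value. ATP5J, COX7C and NDUFA1 belong to the shortest 25% of nuclear genes tested, and the part of gene length in their values was not tested. Of complex IV genes, COX7C had 334 ± 103 FPKM in PKP2_het and 214 ± 25.6 FPKM in WT (limma adjusted p = 0.232), and of complex I genes, NDUFA1 had 171 ± 48.2 FPKM in PKP2_het and 105 ± 9.49 FPKM in WT (limma adjusted p = 0.135).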

How the data were processed

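The labels give 4 PKP2_het and 4 WT libraries of right ventricular RNA. Per the labels' protocols, paired 150-base reads were aligned with HISAT2 2.0.5; the counting program, annotation and library scaling are not given in any source used here. The authors deposited FPKM per gene, which multiplied by gene length gave whole fragments for 100% of values, within 0.01, and hence the depth. The 10757 genes that reached 1 FPKM in 4 or more libraries were compared on log2(FPKM + 1) by limma (version 3.58.1, R version 4.3.3) using a mean-variance trend, two-sided and adjusted by Benjamini-Hochberg over all of them at 0.05. A second fit multiplied each library so that COX1 was equal in all, and left COX1 untested. Fold changes include the pseudocount and understate changes of low genes. The fit was tested on simulated data. The members, lists and tests were chosen with earlier results of these data known. Genes were named from the mitochondrial genes, PKP2, the 5 of smallest p per nuclear list, TFAM, POLRMT, LRPPRC, SLIRP and ATP5J, and the most abundant marker of each cell type; TRMT10C and PRORP were added after their values were seen. Of the list entries, 168 were matched by symbol, 2 by another symbol, 16 by the protein annotation and 2 not. Alternatives were other pseudocounts (0.1, 0.5), filters and scalings, weighted libraries, robust and own variances, voom, a replicate block, and omitted libraries. No 2 libraries of a group were copies: the lowest chi-square per gene between them was 25.0.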

Additional observations from a re-analysis of the deposited data

Results flagged for a closer look

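In 10 of 60 groups of 4 libraries, for protein and rRNA genes and for the mitochondrial share, 1 library lay apart from the other libraries of its group by Dixon's ratio; chance gives about 1 in 20, and the genes of a library move together. WT replicate 1 was the high one for the mitochondrial share, at 37.6% of fragments, and for the levels of ATP8 at 296 FPKM, COX3 at 74447 FPKM, ND3 at 6134 FPKM, ND4 at 32273 FPKM, ND6 at 16191 FPKM and CYTB at 25148 FPKM. As a percentage of COX1, ND4 was high in PKP2_het replicate 2, at 34.9%, and low in WT replicate 4, at 36.9%, where COX3 was also low, at 81.9%.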

How the results depend on the processing

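On deposited levels 0 mitochondrial genes were called in the report; rescaling libraries to equal FPKM sums called 2, tRNA-Cys and tRNA-Tyr, and leaving out 1 library at a time called 0 to 1 (tRNA-Cys, without PKP2_het replicate 2). The 4 calls with COX1 scaling became 0 with no filter on low values, 1 with robust variances, 0 with each gene's own variance (an alternative chosen after seeing the data) and 2 without PKP2_het replicates 3 and 4. Library quality weights could not be fitted with COX1 scaling and were not run there. The 3 calls among mitochondrial RNA genes became 7 with library quality weights, 0 with own variances, 0 with equal sums, 1 without PKP2_het replicates 3 and 4 and 1 to 3 without 1 library. The 1 respiratory chain call became 3 with library quality weights, 0 with own variances, 0 with equal sums, 0 without PKP2_het replicates 3 and 4 and 0 to 2 without 1 library.

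The labels do not say whether replicate numbers pair the samples. Deviations of same-numbered libraries correlated at -0.39, 0.03, -0.23 and 0.20, which cannot settle it with so few libraries. With a replicate block, 0 mitochondrial RNA genes and 0 respiratory chain genes were called, 105 genes in all on deposited levels and 52 with COX1 scaling, and the mitochondrial genes called stayed at 0 and 4.

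Over all genes, the 200 calls on deposited levels became 88 at 5 FPKM, 659 with library quality weights, 62 with own variances, 95 with equal sums and 115 to 314 without 1 library. The 83 calls with COX1 scaling became 45 with no filter, 37 at 5 FPKM, 4 with own variances and 52 to 147 without 1 library.

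Log2 fold changes that changed sign belonged to genes that were not called, except ATP8 and tRNA-Lys with COX1 scaling. Without PKP2_het replicates 3 and 4, deposited levels gave -0.32 for 16S rRNA, -0.17 for ND1, -0.66 for ND2, -0.021 for COX1, -0.15 for COX2, -0.24 for ATP8, -0.18 for ATP6, -0.22 for COX3, -0.0030 for ND3, -0.60 for ND6, -0.41 for CYTB and -0.14 for tRNA-Lys. COX1 scaling then gave -0.30 for 16S rRNA, -0.15 for ND1, -0.64 for ND2, -0.13 for COX2, -0.22 for ATP8 and -0.12 for tRNA-Lys. Library quality weights gave -0.014 for 16S rRNA, -0.0021 for ND2, -0.081 for COX3, -0.019 for ND6 and -0.13 for CYTB. Equal sums gave -0.015 for ND6 and -0.023 for CYTB, and scaling to CYTB gave 0.13 for ATP6, 0.081 for COX3 and 0.0085 for ND6. Without 1 library the deposited range was -0.037 to 0.65 for COX3, -0.29 to 0.18 for ND4L, -0.37 to 0.14 for ND4, -0.44 to 0.14 for ND5, -0.19 to 0.58 for ND6 and -0.12 to 0.56 for CYTB. With COX1 scaling it was -0.12 to 0.15 for 16S rRNA and -0.19 to 0.31 for ND2. The cause was not tested. Depth did not limit the messenger RNAs, whereas tRNA-Ile, tRNA-Gln, tRNA-Phe, tRNA-Thr and tRNA-Pro rest on 13 fragments or fewer per group.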
